A study of Mus musculus with 79 samples.

Results

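In mice lacking RORα or PER2 in muscle, 10 genes of mitochondrial fatty acid oxidation and the carnitine shuttle were followed through the day in muscle RNA. The members were chosen by symbol: Acsl1, Cpt1b, Slc25a20, Cpt2, Acadvl, Acadl, Acadm, Hadha, Echs1 and Eci1. All 10 were present among the 14253 genes of the RORA tables and the 12952 genes of the PER2 tables. The groups were RORA MKO (muscle-specific knockout of RORα, encoded by Rora, 18 libraries), RORA CTRL (18 libraries), PER2 MKO (muscle-specific knockout of PER2, 24 libraries) and PER2 CTRL (19 libraries). Libraries were made every 4 h over a day, from zeitgeber time 0 (ZT0, lights on) to ZT20, with 3 or 4 mice for each genotype and time. The genotype of CTRL mice is labelled wild type in both sets, so any allele or agent that MKO mice carry beside the deletion cannot be told apart from the loss of the gene. The muscle sampled, the strain, the age, the sex and the driver of the deletion were each not given in the sources used here.

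Long-chain fatty acids are activated to acyl-CoA outside the mitochondrial matrix, handed to carnitine by CPT1 on the outer membrane, carried through the inner membrane by a translocase and returned to CoA by CPT2. Inside, beta-oxidation repeats a cycle of dehydrogenation, hydration, a further dehydrogenation and thiolysis, with the first step shared among acyl-CoA dehydrogenases of different chain-length preference. The pathway is a main energy source of oxidative muscle fibres and of fasted muscle. RORα is a nuclear receptor that activates transcription, and PER2 is a repressor in the circadian clock.

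Every value comes from tables in which the authors compared MKO with CTRL mice at 1 ZT, and levels per library were not analysed here. Library depth is unknown, so precision is given by the authors' error or test between mice in place of an interval on read counts. Per the labels, the RORA tables put the knockout over wild type. Since the PER2 tables do not state which genotype is over which, a PER2 value is called positive or negative, with no direction for the knockout. Unless said otherwise, a value for a gene is the mean ± SD of its log2 fold change over the 6 ZT comparisons. The SD holds time of day as well as sampling error. Rora fell by 1.78 ± 0.15 in RORA MKO, called at all 6 ZT, while Per2 had a mean deposited value of 0.37 ± 0.29 in the PER2 set. Per2 was called at 1 of the 6 ZT there and was negative at ZT0, at -0.16. The tissue carried the markers of skeletal muscle, with mean normalized counts of 792710 for the fast myosin Myh4, 261128 for Acta1 and 209483 for Ckm in the RORA tables. The brown adipocyte markers Ucp1 and Cidea had 3.25 and 4.09, and Cox8b, a cytochrome c oxidase subunit of brown fat that muscle also makes, had 2441. The white adipocyte hormone Adipoq had 53.0.

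Among the members, the authors' mean normalized count per kilobase of transcript in the RORA tables was highest for the dehydrogenases, at 1484 for Acadvl, 1375 for Acadl and 1370 for Acadm. It was 981 for Hadha, 682 for Acsl1, 676 for Eci1, 632 for Echs1, 384 for Slc25a20 and 299 for Cpt2. Cpt1b was lowest at 20.3 per kilobase. Lengths were of GENCODE M21 protein-coding transcripts, and the tables give no spread of a level, so neighbours in this order were not compared. In the PER2 tables Acadm led with 125 CPM per kilobase, followed by Acadvl with 108, Acadl with 89.5 and Cpt1b with 87.6, and Cpt2 was lowest with 21.9. Cpt1b was thus lowest in the RORA order but among the top 4 in the PER2 order.

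Cpt1b, the muscle form of the CPT1 enzyme that controls entry into the mitochondrion, had a mean normalized count of 58.7 in the RORA tables and a mean level of 254 CPM in the PER2 tables. With RORA levels scaled to CPM as well (counts normalized to a common library size), the RORA-minus-PER2 difference in log2 level was -5.52 for Cpt1b. The same difference was 0.00 to 0.53 for the other 9 members and 0.25 for the median of 11429 genes in both sets, with 5th and 95th percentiles of -0.76 and 0.81. A lower value was found for 31 genes. In GENCODE M21 (GRCm38), Cpt1b lies on the minus strand of chromosome 15 at chr15:89416405-89425863. The choline kinase gene Chkb lies just upstream at chr15:89426360-89429908, and the read-through gene Gm44502 at chr15:89416405-89429696 spans Cpt1b and overlaps most of Chkb. Chkb also had a low difference, -3.29, and Gm44502 was listed in neither set. Whether the counting of reads shared by these overlapping genes sets the Cpt1b level was not tested. RORA values of Cpt1b rest on this low count and have errors of 0.09 to 0.14, against 0.04 to 0.07 for the other members, so Cpt1b is reported as uncertain in that set. Comparisons made within a set do not use the level set across both.

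**Figure D1:**
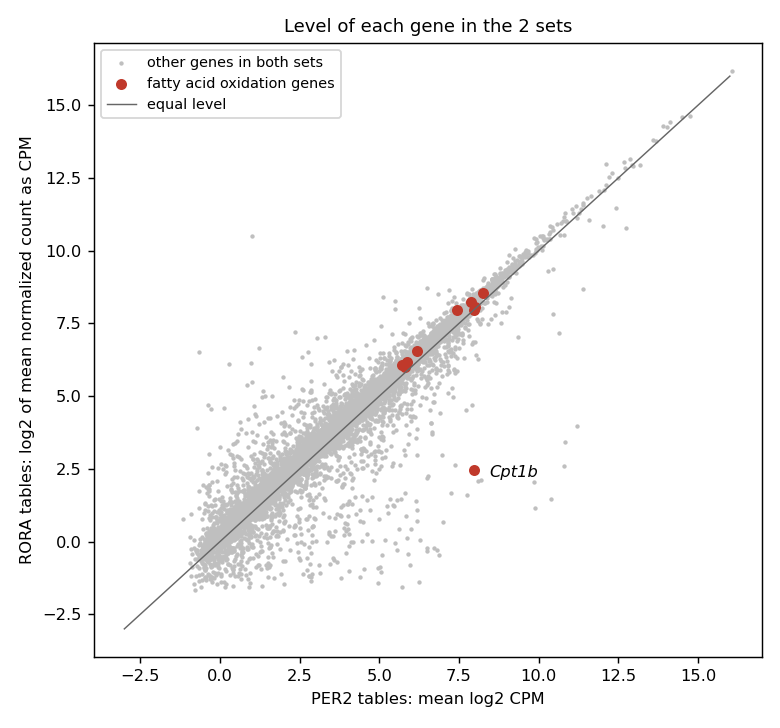
Level of each gene in both sets, with the log2 of the RORA mean normalized count as CPM on the vertical axis and the PER2 mean log2 CPM on the horizontal axis. Grey points are other genes, red points the 10 fatty acid oxidation genes and the line marks equal level. The red points lie along the line apart from Cpt1b, far below it with a difference of -5.52.

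In RORA MKO muscle the members did not move as a block. Averaged over ZT, 6 members rose (Cpt2, Eci1, Acadl, Acadvl, Hadha and Slc25a20), 3 fell (Acsl1, Cpt1b and Acadm) and Echs1 did not pass the test. Changes were small, and the largest were in Acsl1, which fell by 15.4%, and Cpt2, which rose by 16.2%. Of all genes, 18.9% were called up and 19.3% down, and these shares were 32.5% and 41.2% among genes whose mean normalized count reached 500, a limit set after the data were seen. The members' share of calls is therefore to be read against a high background at their level. Without Cpt1b, 6 of 9 rose and 2 fell. With limma, which takes the 6 ZT values of a gene as its replicates, 3 rose and 3 fell, and Slc25a20, Acadl and Hadha no longer passed (adjusted p 0.24, 0.105 and 0.155). The median of the 10 means was 0.08, against 0.004 over all genes. In whole muscle, fewer cells or fibres of a type cannot be told apart from less RNA per cell.

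Acsl1 encodes the main long-chain acyl-CoA synthetase of muscle, which activates fatty acids. Its log2 fold change in the authors' deposited tables was -0.13, -0.30, 0.05, -0.34, -0.46 and -0.28 from ZT0 to ZT20, with a call at each time but ZT8. Its mean was -0.24 ± 0.18 (adjusted p 2.99e-28, inverse-variance mean with Benjamini-Hochberg adjustment over all genes, as for the RORA means that follow). It was lower in RORA MKO at 5 of 6 ZT.

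The carnitine shuttle genes did not move together. Cpt1b fell, with a mean of -0.19 ± 0.12 (adjusted p 0.000478), and was negative at all 6 ZT. The authors' deposited tables placed Cpt1b at -0.12, -0.20, -0.10, -0.07, -0.40 and -0.26 from ZT0 to ZT20, called at ZT4, ZT16 and ZT20. Cpt2, which returns acyl groups to CoA on the matrix side, rose by 0.22 ± 0.12 (adjusted p 1.02e-26) and was positive at all 6 ZT. Its values in the authors' deposited tables were 0.30, 0.24, 0.40, 0.13, 0.07 and 0.16 over the same times, called at all but ZT16. Slc25a20, the carnitine-acylcarnitine translocase, had a mean of 0.07 ± 0.11 (adjusted p 0.00616). The authors' deposited tables called Slc25a20 at ZT0 alone, at 0.26, and put it between -0.08 and 0.11 at the other ZT. Without ZT0 the Slc25a20 mean no longer passed (adjusted p 0.393), so its rise rests on that time.

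The acyl-CoA dehydrogenases split by gene. Acadl, the long-chain enzyme, had a mean of 0.16 ± 0.19 (adjusted p 8.48e-09). The authors' deposited tables gave Acadl 0.37 at ZT0, 0.13 at ZT4 and 0.42 at ZT8, all called, and 0.05 at ZT12, -0.08 at ZT16 and 0.07 at ZT20, none called. Acadvl, the very-long-chain enzyme of the inner membrane, rose by 0.14 ± 0.10 (adjusted p 3.88e-12). Its values in the authors' deposited tables were 0.27, 0.16, 0.23, 0.05, -0.00 and 0.14 from ZT0 to ZT20, called at all but ZT12 and ZT16. Acadm, the medium-chain enzyme, fell, with a mean of -0.17 ± 0.10 (adjusted p 7.74e-12). The authors' deposited tables gave Acadm -0.06, -0.14, -0.07, -0.20, -0.32 and -0.20 over the same times, called at ZT4, ZT12, ZT16 and ZT20. Acadm was thus below 0 at all 6 ZT, while Acadvl was above 0 at 5.

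Among the enzymes of the later steps, Eci1, the isomerase that brings double bonds of unsaturated fatty acids into the position the pathway needs, rose by 0.19 ± 0.10 (adjusted p 1.14e-24). The authors' deposited tables gave Eci1 0.21, 0.16, 0.36, 0.10, 0.10 and 0.23 from ZT0 to ZT20, called at all but ZT12. Hadha, the alpha subunit of the mitochondrial trifunctional protein, had a mean of 0.09 ± 0.12 (adjusted p 0.000139). For Hadha the authors' deposited tables gave 0.25, 0.08, 0.19, 0.02, -0.08 and 0.06, called at ZT0 and ZT8. Without ZT0 the Hadha mean no longer passed (adjusted p 0.0619). Echs1, the short-chain enoyl-CoA hydratase, averaged 0.002 ± 0.09 (adjusted p 0.893). The authors' deposited tables called Echs1 up at ZT0, at 0.16, and down at ZT4, at -0.10.

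**Figure D2:**
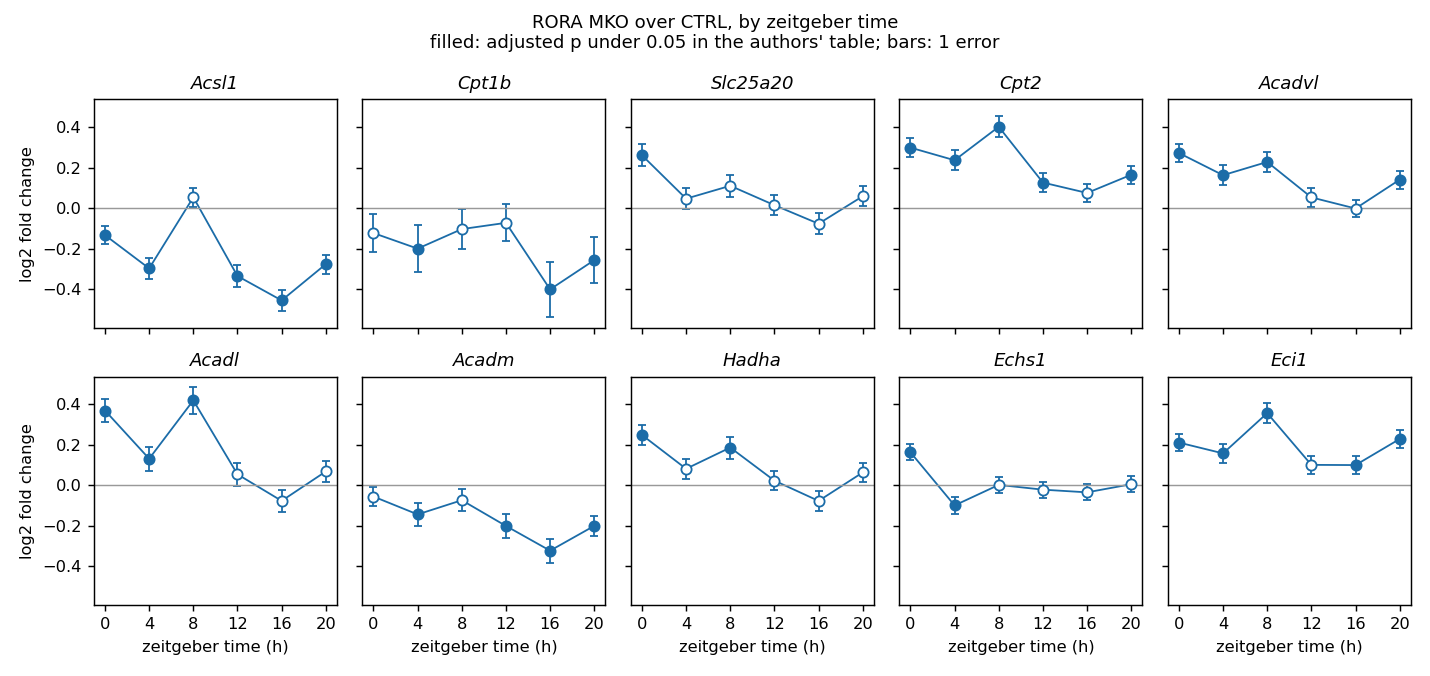
Log2 fold change of RORA MKO over CTRL (vertical axis) at each zeitgeber time in hours (horizontal axis), 1 panel per gene. Points are the authors' values, bars 1 error on each side, and filled points have an adjusted p under 0.05. Acsl1, Cpt1b and Acadm lie mostly below 0, while Cpt2 and Eci1 lie above it at all 6 ZT.

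Hadha shares a start region with Hadhb, the beta subunit of the same protein. In GENCODE M21 (GRCm38) Hadha runs on the minus strand at chr5:30118304-30155162 and Hadhb on the plus strand at chr5:30155248-30184593, so their starts are 86 bases apart. Hadhb rose by 0.15 ± 0.12 in RORA MKO (adjusted p 4.2e-11). The authors' deposited tables gave Hadhb 0.29, 0.16, 0.28, 0.10, -0.02 and 0.10 from ZT0 to ZT20. Both subunits were highest at ZT0 and ZT8 and lowest at ZT16. Hadhb was named after its values were seen.

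Promoter sequences are shown for Cpt2, Acadl and Acadvl, which rose in RORA MKO, and for Acsl1 and Acadm, which fell. Each is the RefSeq window (GRCm38.p6) from 250 bases before the start to 50 after it, 5′ to 3′ on the gene's strand, with AGGTCA, the core hexamer that many nuclear receptors bind, in capitals on either strand (TGACCT where it is on the other strand). They are Cpt2 at chr4:107923540-107923839, Acadl at chr1:66863260-66863559, Acadvl at chr11:70015379-70015678 and Acadm at chr3:153944594-153944893, all on the minus strand, and the upstream start of Acsl1 at chr8:46470787-46471086 on the plus strand.
Cpt2: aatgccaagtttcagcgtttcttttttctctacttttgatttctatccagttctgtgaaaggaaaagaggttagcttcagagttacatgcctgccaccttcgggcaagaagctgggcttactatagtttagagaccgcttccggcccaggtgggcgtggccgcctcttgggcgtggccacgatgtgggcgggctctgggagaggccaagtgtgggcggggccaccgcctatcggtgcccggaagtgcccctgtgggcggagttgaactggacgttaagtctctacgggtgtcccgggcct
Acadl: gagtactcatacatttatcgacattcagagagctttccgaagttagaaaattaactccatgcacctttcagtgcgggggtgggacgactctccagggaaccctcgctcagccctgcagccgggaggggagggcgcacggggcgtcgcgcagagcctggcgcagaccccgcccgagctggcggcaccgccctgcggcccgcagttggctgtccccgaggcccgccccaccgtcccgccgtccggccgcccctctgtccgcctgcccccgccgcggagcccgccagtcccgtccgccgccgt
Acadvl: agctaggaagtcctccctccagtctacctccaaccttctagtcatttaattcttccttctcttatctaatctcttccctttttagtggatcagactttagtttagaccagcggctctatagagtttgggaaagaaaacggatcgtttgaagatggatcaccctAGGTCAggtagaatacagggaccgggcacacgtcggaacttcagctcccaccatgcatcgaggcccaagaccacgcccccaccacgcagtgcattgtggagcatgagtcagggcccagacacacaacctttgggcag
Acadm: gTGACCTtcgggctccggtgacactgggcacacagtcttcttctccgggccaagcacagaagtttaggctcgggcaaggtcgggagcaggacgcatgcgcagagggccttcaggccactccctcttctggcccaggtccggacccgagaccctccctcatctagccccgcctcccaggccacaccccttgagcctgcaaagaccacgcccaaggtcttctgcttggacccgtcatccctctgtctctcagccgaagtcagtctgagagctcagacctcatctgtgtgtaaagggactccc
Acsl1: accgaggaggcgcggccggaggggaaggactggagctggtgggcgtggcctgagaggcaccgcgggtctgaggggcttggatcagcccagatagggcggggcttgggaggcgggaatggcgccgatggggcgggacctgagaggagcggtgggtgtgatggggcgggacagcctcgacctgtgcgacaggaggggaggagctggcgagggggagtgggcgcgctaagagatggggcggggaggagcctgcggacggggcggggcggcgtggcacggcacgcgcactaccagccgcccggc
The table held windows for 9 of the 10 members (10 windows, since Acsl1 has a pair), and none was matched for Cpt1b. AGGTCA, searched on both strands, was in 3 of the 10 windows and in 16.2% of 32544 promoters of the same length. It lay at bases 2 to 7 of the Acadm window on the opposite strand, at bases 164 to 169 of Acadvl and at bases 168 to 173 of Echs1, both on the gene's strand, counted from 1 at the window's 5′ end. The hexamer was thus present in a gene that fell, in a gene that rose and in a gene that did not pass. None of the 10 windows held TCAAGGTCA, the extended site of estrogen-related receptors, which contains AGGTCA and was in 0.412% of promoters. The E-box CACGTG, bound by clock factors, was in 7.17% of promoters, and the ROR response element and the DR1 element of PPAR-RXR, which can overlap AGGTCA, were in 0.384% each. No member window held any of these 3 either. A match describes the letters in a window and not a bound site.

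The RORA change differed between the 6 ZT comparisons. Each ZT has its own mice, so time of day cannot be told apart from other differences between those groups of mice. By Cochran's Q, which tests whether the 6 fold changes of a gene differ, 8 of 10 members passed, against 11.0% of all genes and 32.5% of genes whose mean normalized count reached 500. Acsl1 (adjusted p 4.89e-10) and Acadl (adjusted p 9.1e-08) were the strongest, and Cpt1b (adjusted p 0.837) and Acadm (adjusted p 0.0604) did not pass. By leaving out ZT0 or ZT16 the count fell to 5 in each case. Slc25a20 and Hadha were lost both times, Echs1 without ZT0 and Acadvl without ZT16. Without ZT8 it was 6, Cpt2 (adjusted p 0.0556) and Eci1 (adjusted p 0.426) being lost. A 24 h cosine passed for 6 members, against 5.42% of all genes, with Echs1 and Eci1 not passing.

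The course was shared by members that rose and members that fell. Relative to its own mean over ZT, each of the 10 genes was above it at ZT0 and each was below it at ZT16, and 9 were above it at ZT8. No share of all genes was taken for these counts. The lowest of the 6 fold changes was at ZT16 for 9 members, the exception being Echs1, with its lowest at ZT4. Of the genes whose mean normalized count reached 500, 12.4% had their lowest value at ZT16. The median log2 fold change of the members by ZT, from ZT0 to ZT20, was 0.23, 0.06, 0.15, 0.02, -0.08 and 0.06, while the median of all genes stayed within 0.01 of 0. The ZT16-minus-ZT8 difference in log2 fold change was -0.51 ± 0.07 (error) for Acsl1, -0.50 ± 0.09 for Acadl and -0.33 ± 0.07 for Cpt2, these times being chosen after the course was seen. It was smallest for Echs1, at -0.04 ± 0.06, and was within 2 errors of 0 for Cpt1b too, at -0.30 ± 0.17. The other 5 members lay between -0.26 and -0.19. Acsl1 was thus below 0 at ZT16 but not at ZT8, while Cpt2 and Acadl, called up at ZT8, were not called at ZT16 in the authors' deposited tables. Deposited RORA fold changes appear shrunken toward 0, which can stretch or narrow differences in size between ZT.

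**Figure D3:**
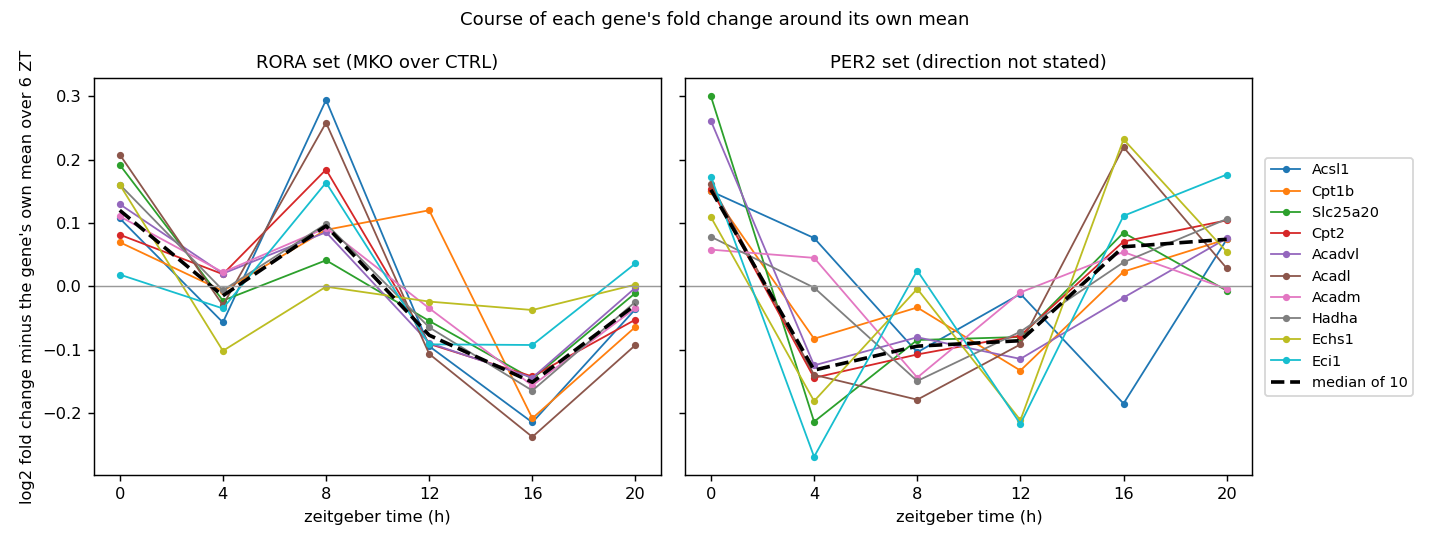
Log2 fold change of each gene minus that gene's own mean over 6 ZT (vertical axis) by zeitgeber time in hours (horizontal axis), in the RORA set and the PER2 set. Lines are the 10 genes and the dashed line their median. In the RORA set all 10 lie above 0 at ZT0 and below 0 at ZT16. In the PER2 set, as deposited, all 10 lie above 0 at ZT0 and below 0 at ZT12.

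The calls by time followed this course. In the authors' deposited tables, 7 members were called up and 1 down at ZT0, where 14.8% of all genes were up and 13.4% down. At ZT4, 4 were up and 4 down in the authors' deposited table, against 14.8% and 14.2% of all genes, and at ZT8 5 were up and 0 down, against 13.7% and 14.1%. At ZT12 the authors' deposited table called 1 up and 2 down (11.0% and 11.1% of all genes), and at ZT16 1 up and 3 down (10.4% and 10.3%). At ZT20 it called 3 up and 3 down (16.6% and 15.6%). Over all times 34 of 60 values were called, 21 up and 13 down. ZT0 and ZT8 were the times at which rises prevailed.

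Other cell and fibre markers moved with some of these times, and their part in the members' values was not tested. In RORA MKO the 10 slow and oxidative fibre markers had medians of 0.62, -0.23, 0.16, 0.03, 0.02 and -0.12 from ZT0 to ZT20, but only 1 of them rose in the mean over ZT. Among 8 fast fibre markers 5 fell and 1 rose. Of 10 endothelial markers 9 rose, with a median of 0.16. Of all genes 18.9% rose and 19.3% fell, and of genes whose mean normalized count reached 500 these were 32.5% and 41.2%. The 3 measured brown adipocyte markers had a median of 0.86 at ZT0, with Ucp1 and Cidea near 0 in level and Cox8b not. Of 8 white adipocyte markers none passed in the mean over ZT, with medians of -0.50 at ZT0 and 0.41 at ZT20.

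In the PER2 set the members' deposited fold changes were mostly negative. Of 60 values, 50 were negative, and the members' median by ZT was 0.00, -0.25, -0.24, -0.21, -0.07 and -0.06 from ZT0 to ZT20. Relative to its own mean as deposited, each of the 10 was above it at ZT0 and below it at ZT12. All 10 were also above their own mean at ZT0 in the RORA set. The PER2 sides turn if the sign is turned, and no share of all genes was taken. By Stouffer's sum over the 6 ZT, 6 members had a negative mean that passed and 0 a positive one (7 and 0 at an unadjusted p under 0.05). Of all genes 10.6% were called negative and 10.9% positive, and at the members' level (47.2 CPM or more) 9.53% and 19.8%. The median of the 10 means was -0.13, against -0.016 over all genes. A negative value is lower in PER2 MKO if the tables are knockout over control, and higher if they are the reverse.

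The members that passed came from the inner shuttle and the matrix, though not every member from there passed. Position in the pathway was not tested. Eci1 averaged a log2 fold change of -0.25 ± 0.20 (adjusted p 0.00055, Stouffer's sum with Benjamini-Hochberg adjustment over all genes, as for the PER2 means that follow) and Echs1 one of -0.24 ± 0.17 (adjusted p 0.000541). Slc25a20 averaged -0.16 ± 0.18 (adjusted p 0.00156), Cpt2 -0.14 ± 0.13 (adjusted p 0.00368), Acadl -0.16 ± 0.16 (adjusted p 0.0297) and Hadha -0.11 ± 0.10 (adjusted p 0.0227). The genes at the entry did not pass, with Acsl1 at 0.02 ± 0.13 (adjusted p 0.845) and Cpt1b at -0.03 ± 0.10 (adjusted p 0.705). Acadm at -0.08 ± 0.08 (adjusted p 0.335) and Acadvl at -0.09 ± 0.15 (adjusted p 0.152) did not pass either.

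By time, the authors' deposited adjusted p called 4 members, all negative and all at ZT4, where 6.76% of all genes were called negative. In the authors' deposited table for ZT4 these were Eci1 at -0.52 (adjusted p 0.012), Echs1 at -0.42 (adjusted p 0.0389), Slc25a20 at -0.38 (adjusted p 0.00951) and Cpt2 at -0.29 (adjusted p 0.0406). At the other 5 ZT the authors' deposited tables called 0 members, where the share of all genes called in either direction was 2.70% at ZT0, 3.34% at ZT12, 1.78% at ZT8, 1.52% at ZT20 and 0.811% at ZT16. Unadjusted p was under 0.05 for 6 members at ZT4, 4 at ZT8, 4 at ZT12 and 0 at ZT0, ZT16 and ZT20. Next in line was Eci1 at ZT12, at -0.47 with an adjusted p of 0.0537 in the authors' deposited table. Errors in this set were 0.09 to 0.15, larger than in the RORA set for each member but Cpt1b, so a change of the size seen in the RORA set could be missed at a single ZT. Change with ZT passed Cochran's Q for 0 of 10 members, against 0.0463% of all genes (unadjusted p under 0.05 for Slc25a20 alone), and the 24 h cosine also called 0, against 0.0309% of all genes (unadjusted p under 0.05 for Cpt2 and Acadvl).

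**Figure D4:**
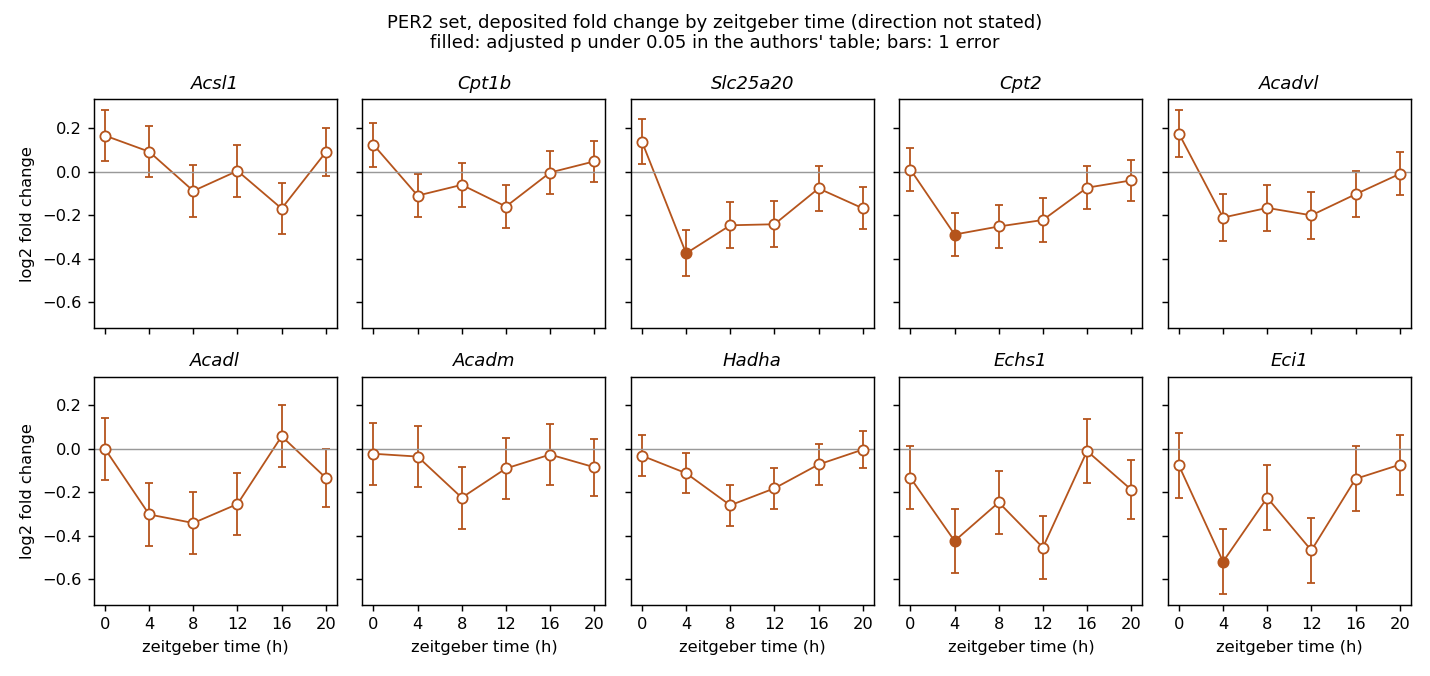
Deposited log2 fold change in the PER2 set (vertical axis, direction not stated) at each zeitgeber time in hours (horizontal axis), 1 panel per gene. Points are the authors' values, bars 1 derived error on each side, and filled points have an adjusted p under 0.05. The only filled points are Slc25a20, Cpt2, Echs1 and Eci1 at ZT4, between -0.29 and -0.52.

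At ZT4 and ZT12 fold changes in the PER2 set followed transcript length and GC content across all genes. Spearman's rho across genes, which are not independent replicates, was 0.54 with length and -0.37 with GC at ZT4, and 0.46 and -0.46 at ZT12. A trend in both properties held 28.6% (ZT4) and 25.8% (ZT12) of the variance, but at most 4.54% at the other ZT. With that trend removed, 0 members were called at ZT4 (2 at an unadjusted p under 0.05). Of 12333 genes, 636 were called, counted in either direction, unlike the share of negative calls given above for ZT4 as deposited. The members' median at ZT4 was -0.18 with the trend removed, against -0.25 as deposited, and at ZT12 -0.15 against -0.21. Eci1, at 1137 bases the shortest of the 10 transcripts, stood at -0.23 with the trend removed and -0.52 as deposited at ZT4. Over the 6 ZT, 5 members still passed with the trend removed, Acadl being lost (adjusted p 0.0571). Without ZT4 and ZT12, and so with fewer mice, the count was 0, with adjusted p from 0.203 for Echs1 to 0.405 for Acadl among the 6. Without ZT4 alone it was 2, Echs1 and Eci1, and Acadl and Hadha were also lost without ZT8 or without ZT12. With limma on the 6 values the count was 0 too, with an adjusted p of 0.055 for Echs1 and 0.0712 for Eci1. Red blood cell genes also moved at these times, with a ZT4 median of -1.35 and a ZT12 median of -1.01, and all 5 measured had a negative mean that passed. The 10 skeletal muscle markers had medians of -0.25 and -0.15 at these times, near the members' own, and 1 of them passed as negative over the 6 ZT. The 7 measured macrophage and leukocyte markers had medians of -0.33 and -0.31, none passing, and 4 of 10 endothelial markers passed as negative. The 7 measured white adipocyte markers had medians of -0.25 and -0.72, none passing. Cox8b stood at -0.76 and -0.64 and did not pass. The 10 slow and oxidative fibre markers had medians of -0.32, -0.13, -0.25, -0.31, 0.30 and 0.25 from ZT0 to ZT20, with 1 passing as negative. Of all genes, 10.6% passed as negative over the 6 ZT. The part of these lists in the members' values was not tested.

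**Figure D5:**
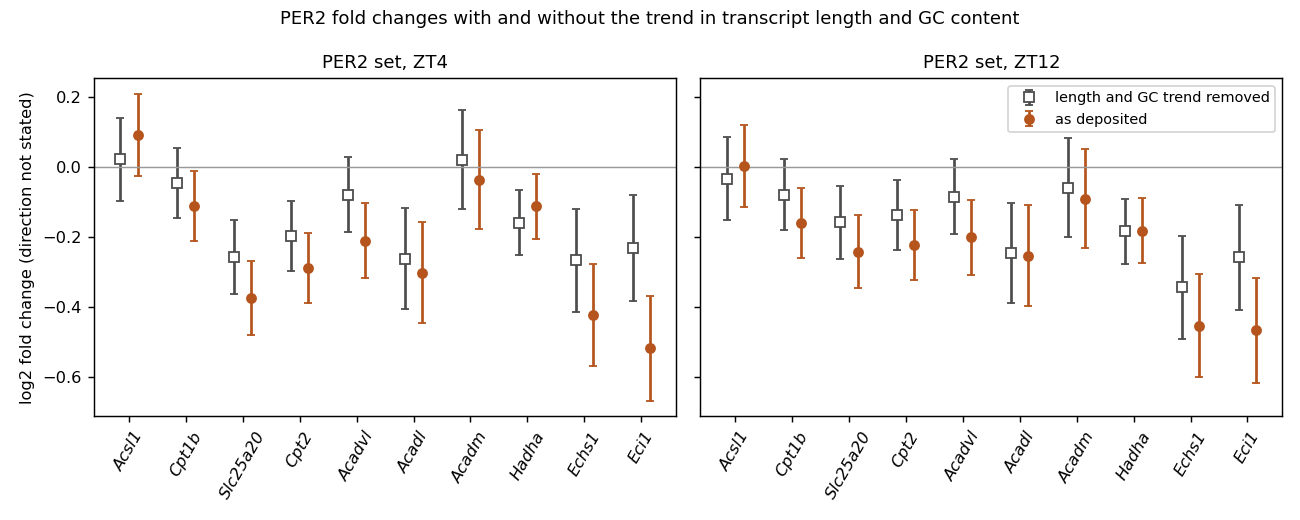
PER2 log2 fold changes of the 10 genes (vertical axis) at ZT4 and ZT12, with the trend in transcript length and GC content removed (open squares) and as deposited (filled circles). Bars are 1 error on each side. Most values lie nearer 0 with the trend removed, as for Eci1 at ZT4, at -0.23 against -0.52.

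Whether the knockouts differed in their effect was tested under both readings of the PER2 sign. The knockouts share no controls. With PER2 as deposited, RORA minus PER2 passed for 9 of 10 members (40.0% of 11429 genes). With the sign turned it passed for 4 (19.2%), and under both readings for 3 (13.3%), namely Acsl1, Cpt1b and Echs1. For Acsl1 the difference was -0.24 (95% interval -0.35 to -0.14) as deposited and -0.21 (-0.31 to -0.11) with the sign turned. For Cpt1b it was -0.14 (-0.26 to -0.02) and -0.19 (-0.31 to -0.07). Under either reading, then, the weighted mean of Acsl1 and that of Cpt1b were lower in RORA MKO relative to its controls than the PER2 value. Their PER2 weighted means were 0.02 and -0.02, so turning the sign moved these differences little. Cpt1b is uncertain in the RORA set for its low count. RORA fold changes also appear shrunken, which enters each difference. For Echs1 it was 0.24 (0.12 to 0.36) as deposited and -0.23 (-0.35 to -0.11) with the sign turned, so its direction depends on the reading. Without ZT4 and ZT12 the Echs1 difference as deposited was 0.18 and no longer passed (adjusted p 0.0509).

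For the remaining members the reading decides. Eci1 differed by 0.43 (0.31 to 0.56) as deposited and by -0.05 (-0.18 to 0.07) with the sign turned. Cpt2 differed by 0.35 (0.26 to 0.44) as deposited and by 0.07 (-0.02 to 0.16) with the sign turned. Acadl differed by 0.30 (0.18 to 0.43) and by -0.02 (-0.14 to 0.11). If the PER2 tables are control over knockout, the intervals leave room for differences of up to 0.18 in size for these 3 genes. By weighted means Acadm passed only with the sign turned, at -0.24 (-0.36 to -0.12), against -0.08 (-0.20 to 0.04) as deposited. With a difference of Stouffer sums Acadm also passed as deposited (adjusted p 4.47e-06), and the count was 10 of 10. Such sums compare strength of evidence and not size of effect. Acadm errors were 0.05 to 0.06 in the RORA set and 0.13 to 0.14 in the PER2 set, so equal effects would give unequal sums. That pass therefore cannot show that the effects differ in size.

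The rest of the pathway was counted by list, to be read against 18.9% of all genes up and 19.3% down in RORA MKO (32.5% and 41.2% of genes whose count reached 500), and 10.9% positive and 10.6% negative in the PER2 set. Of 13 other genes of mitochondrial beta-oxidation, 9 rose, 0 fell and 4 did not pass in RORA MKO, with a median of 0.11. In the PER2 set 0 were positive, 6 negative and 7 did not pass. Among them Acad12, an acyl-CoA dehydrogenase family gene, rose by 0.28 ± 0.12 in RORA MKO and averaged -0.24 ± 0.10 in the PER2 set. The isomerase Eci2 rose by 0.13 ± 0.08 and the short-chain dehydrogenase Acads by 0.13 ± 0.06 in RORA MKO. Of these 13 genes 9 also had their lowest RORA fold change at ZT16, against 12.4% of genes whose count reached 500. Some of the 13 lay below that count, such as Acad12 at 330 and Acad10 at 51.3, and no share was taken at their level. The genes that pass electrons from the dehydrogenases to the respiratory chain, Etfa, Etfb and Etfdh, rose too, by 0.13 ± 0.08, 0.14 ± 0.08 and 0.07 ± 0.12 in RORA MKO.

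Some genes near the shuttle changed more than any of the 10. Of 12 other carnitine and acyl-CoA synthetase genes, 2 rose, 5 fell and 5 did not pass in RORA MKO, while in the PER2 set 3 were positive and 0 negative. The share that fell is close to the 41.2% among genes whose count reached 500. Crot, the peroxisomal carnitine octanoyltransferase, fell by 1.04 ± 0.07 in RORA MKO and was called at all 6 ZT. Acsl3, a synthetase of the endoplasmic reticulum and lipid droplets, fell by 1.07 ± 0.16, and Acsl4, which prefers arachidonate, fell by 0.28 ± 0.07. Crat, the mitochondrial carnitine acetyltransferase, rose by 0.28 ± 0.07. In the PER2 set Acsl3, Acsl4 and Crot had positive means of 0.45 ± 0.22, 0.45 ± 0.16 and 0.17 ± 0.09, all past the test.

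Among 9 genes of malonyl-CoA control and acyl-CoA thioesterases, 2 rose and 4 fell in RORA MKO, shares near the 32.5% up and 41.2% down among genes whose count reached 500. Mlycd, which degrades the CPT1 inhibitor malonyl-CoA, rose by 0.25 ± 0.13, and Acacb, which makes it near the mitochondrion, averaged -0.06 ± 0.07 and passed as lower. The thioesterase Acot7 fell by 0.41 ± 0.10. In the PER2 set 2 of these genes were positive and 0 negative. Of 6 fatty acid uptake and binding genes, 2 rose and 0 fell in RORA MKO, and 2 were negative in the PER2 set (10.6% of all genes). The share that rose is near the 32.5% among genes whose count reached 500. The same pair passed both times, and the share of all genes passing in both was not taken. Fabp3, the muscle fatty acid binding protein, had 0.30 ± 0.24 in RORA MKO and -0.33 ± 0.29 in the PER2 set. The transporter Slc27a1 had 0.12 ± 0.10 and -0.23 ± 0.19. In the authors' deposited PER2 tables Fabp3 was called at 0 ZT and Slc27a1 at 1.

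Of 11 peroxisomal genes 8 rose and 0 fell in RORA MKO (18.9% and 19.3% of all genes), and 7 of 12 were negative in the PER2 set (10.6% of all genes). Pex11a, a peroxisome proliferation factor, rose by 0.38 ± 0.18 in RORA MKO and averaged -0.28 ± 0.17 in the PER2 set. Among genes of ketone body use, Oxct1, which activates acetoacetate, fell by 0.17 ± 0.08 in RORA MKO and averaged -0.18 ± 0.10 in the PER2 set. Of 15 regulators and genes they regulate, 10 rose and 1 fell in RORA MKO, among them the nuclear receptor gene Ppard at 0.17 ± 0.05 and the lipid droplet gene Plin2 at 0.14 ± 0.10, while in the PER2 set 1 was positive and 3 negative.

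The genes most like the members were ranked by the root mean square difference between a gene's 12 log2 fold changes (6 ZT in each set) and the members' medians, over 8643 candidates. They were Dhrs4 (0.0483), a peroxisomal reductase, Gramd1a (0.0626), a sterol transport protein, Hibadh (0.0638), a mitochondrial enzyme of valine breakdown, Ptrh2 (0.0649), a mitochondrial peptidyl-tRNA hydrolase, and Eci2 (0.0654). The members themselves spread around that median, from 0.0472 for Hadha to 0.273 for Acsl1. Of the candidates, 82.0% lay nearer to it than Acsl1, 62.1% than Cpt1b, 45.3% than Acadm and 20.5% than Eci1. For each of the other members the share was at most 8.70%. The ranking is thus a description of the median and not of each member, and candidates share libraries with the members.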

How the data were processed

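Muscle RNA of 79 libraries was compared by the authors, and 12 tables of those comparisons were used. Per the labels' protocols, RNA was extracted with TRI-Reagent and RNeasy columns, and TruSeq stranded mRNA libraries were run on a NextSeq 500. Tools in the submitters' processing notes, which give no order, are STAR, Trimmomatic, DESeq2, R 4.1, MultiQC and bcl2fastq 2.20.0.422. The same notes list mm9 and GRCm39 without saying what each was for. The read counter, whether it used strand and the annotation were each not given in the sources used here. Per the file headers, the deposited RORA tables hold a mean normalized count (a signal level), a p-value, an adjusted p and a log2 fold change with an error. Per the labels, they were filtered at 10 reads in 3 samples. The deposited PER2 tables hold, in log2 units, a fold change and a mean CPM, then a p-value, an adjusted p and the likelihood ratio as a score. The ratio of deposited RORA fold change to error was 0.779 times the z of its p (median; 0.902 over members), as with shrunken values.

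The PER2 error was derived as the size of the fold change over the root of the likelihood ratio. RORA means over ZT were inverse-variance means and PER2 means Stouffer sums, each with a two-sided normal p. PER2 means with centring or with the length and GC trend removed were inverse-variance means. Change with ZT was Cochran's Q (5 degrees of freedom), with an upper-tail chi-square p. All these p were adjusted by Benjamini-Hochberg over all genes (threshold 0.05), and the tests were tried on simulated data. Printed means are plain means, while the difference between knockouts uses weighted means. All 10 members and up to 3 genes per list by RORA p plus 2 by PER2 p were taken for naming, and a few of these are not reported here. Members and lists were chosen with earlier results of these data known. GENCODE M21 and RefSeq (GRCm38) gave names, lengths, GC content and promoters only, and their build differs from those in the notes. The labels' name of each RORA table holds the word replicate, and whether that fit had a replicate term was not stated. Each ZT has its own mice, and whether replicates of a group differ in batch was likewise not given in the sources used here. Alternatives were another way to combine ZT, a stricter threshold, a level minimum (50 counts or 1 CPM), centring, a length and GC trend, and each ZT left out. Software was limma 3.58.1 in R 4.3.3 and, in Python 3.11.15, SciPy 1.17.1, pandas 2.3.3, NumPy 2.4.6 and matplotlib 3.10.9.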

Additional observations from a re-analysis of the deposited data

Results flagged for a closer look

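The effect of the RORA knockout differed between zeitgeber times for 8 of the 10 genes by Cochran's Q, with Benjamini-Hochberg adjustment over all genes. The adjusted p was 4.89e-10 for Acsl1, 9.1e-08 for Acadl, 0.000312 for Cpt2, 0.0012 for Hadha, 0.0024 for Acadvl, 0.00521 for Echs1, 0.00551 for Slc25a20 and 0.00917 for Eci1. RORA fold changes ranged from -0.46 to 0.05 for Acsl1 and from -0.08 to 0.42 for Acadl over the 6 ZT in the authors' deposited tables.

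The effects of the RORA and PER2 knockouts differed under both readings of the PER2 sign for 3 genes. The larger of the adjusted p of both readings was 0.000649 for Acsl1, 0.00128 for Echs1 and 0.0443 for Cpt1b. Without ZT4 and ZT12 the Echs1 difference as deposited had an adjusted p of 0.0509. Acsl1 averaged -0.24 ± 0.18 in the RORA set and 0.02 ± 0.13 in the PER2 set, and Cpt1b -0.19 ± 0.12 and -0.03 ± 0.10. The Cpt1b difference crosses sets whose levels for this gene have a RORA-minus-PER2 difference of -5.52 on the log2 scale.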

How the results depend on the processing

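Calls of members per ZT in the RORA set were 34 as deposited and 17 with Bonferroni adjustment (12 up, 5 down). In the PER2 set they were 4, then 1 at a threshold of 0.01 and 0 with Bonferroni adjustment. The count of members whose RORA mean passed was 9, 6 with limma on the 6 values, and 7 to 9 with each ZT left out, 7 being without ZT0. The count whose PER2 mean passed was 6, 0 with limma, 0 without ZT4 and ZT12, and 2 to 7 with each ZT left out. The RORA change with ZT passed for 8 members, and for 5 to 9 with each ZT left out, while the PER2 change with ZT passed for 0 under every alternative run. With the PER2 sign turned, RORA minus PER2 passed for 4 members against 9 as deposited. The direction then turned for Slc25a20 (adjusted p 0.154), Acadl (0.901), Hadha (0.776), Echs1 (0.00128) and Eci1 (0.639), which follows from turning the sign. For the other alternatives the cause was not tested. The sign of a mean that passed nowhere also turned: for Echs1 in the RORA set without ZT0 (adjusted p 0.259 to 0.922 with each ZT left out), and in the PER2 set for Acsl1 without ZT0 (0.504 to 0.993) and for Cpt1b without ZT12 (0.392 to 0.997), without ZT4 and ZT12 (0.813) and with the trend removed (0.883). Over single genes and alternatives of the means and the difference, 228 outcomes kept direction and side of the threshold, 29 no longer passed, 3 newly passed and 10 turned. For change with ZT, which has no direction, 166 kept their side, 10 no longer passed and 4 newly passed. Omitting Cpt1b and removing the length and GC trend from the PER2 side of the difference were chosen after seeing the data. No paired analysis was possible because the tables hold comparisons and not libraries, and the numbers in the labels each name a single library of a set. The unknown depth limits what an uncalled value can show.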
